A study of Mus musculus with 36 samples.

Results

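The insulin-like growth factor (IGF) system of enteric glial cells (EGCs) was followed through 9 genes: Igf1, its receptors Igf1r and Igf2r, and the IGF-binding proteins Igfbp2, Igfbp3, Igfbp4, Igfbp5, Igfbp6 and Igfbp7. The members were taken by their symbols, and all 9 were among the 43472 rows of the count table. mRNA had been measured by 3′ sequencing in 36 libraries, 4 for each of 9 groups, to ask how EGCs respond to factors released by colorectal tumors. The cells were wild-type (WT) EGCs derived from neurospheres of whole intestines of E13.5 C57BL/6J embryos. All groups therefore came from an embryonic culture and not from adult or tumor-resident glia. After dissociation of the neurospheres, the cells were differentiated on coated plates in medium with serum. They were left unstimulated, or exposed to conditioned medium of digested healthy colon (H-CM) or of digested orthotopic MC38 tumors, a mouse colon carcinoma line (TME-CM), for 6 h, 12 h or 24 h. No label says that the 4 libraries of a group were separate cultures, so p-values measure only the spread between these libraries.

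IGF1 and IGF2 are secreted peptides that activate the receptor tyrosine kinase IGF1R, while IGF2R binds mainly IGF2 and carries it to lysosomes. The binding proteins hold the peptides outside the cell, where they can lengthen the half-life of the ligands, keep them from the receptor or release them once a protease has cut the binding protein. In the gut wall, IGF1 is known as a growth factor of muscle and mesenchymal cells, and glia and stromal cells secrete several of the binding proteins.

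Levels are given as CPM, which are read counts divided by the size of the library, here scaled within each time point by the TMM factors of edgeR. Library totals were 13518 to 5244763 counts at 6 h, 2005239 to 5961933 at 12 h and 1608018 to 7552509 at 24 h, so that the values of 6 h are the least precise. The row Yam1 alone took 11% to 48.6% of a library. The glial markers Sox10 (74.6 ± 1.7 CPM in TME-CM EGCs at 24 h, SD, n = 4) and S100b were present in all groups. Summed over lists, mesenchymal markers came to 7402 ± 658 CPM and smooth muscle markers to 2343 ± 413 CPM in the same libraries. The glial list came to 311 ± 39.7 CPM. Single genes made up a large part of the mesenchymal and smooth muscle sums, with 2559 ± 455 CPM of Dcn and 1726 ± 377 CPM of Acta2. With Pdgfra, Wt1, Prkg1 and Foxp2 as markers, the authors described expression from such cells in unstimulated cultures as minimal. RNA of a whole culture does not separate fewer cells of a type from less RNA per cell.

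At 24 h, 4 of the 9 members were higher in TME-CM than in H-CM EGCs, namely Igf1, Igfbp3, Igfbp4 and Igfbp7, and no member was lower (adjusted p under 0.05, edgeR's quasi-likelihood test with Benjamini-Hochberg adjustment over all genes tested). Of the 12713 genes tested in this comparison, 5.4% were called, 2.75% as higher. The same 4 genes were higher in TME-CM than in unstimulated EGCs, in which Igfbp6 was lower, so that 5 of 9 were called beside 9.52% of all genes. H-CM against unstimulated EGCs gave 0 calls among the members beside 2.03% of all genes; 4 members had an unadjusted p under 0.05 there beside 10.6% of all genes, and DESeq2 called 1, Igfbp5. The member median of the log2 fold change in TME-CM against H-CM EGCs was -0.13 beside 0.00 for all genes, since the 5 members that did not pass the test all had values below 0. The comparisons of a time point share libraries, so their calls are not independent of each other. The members were chosen with earlier results of these data known, so the shares of all genes stand beside their calls as a description.

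**Figure D1:**
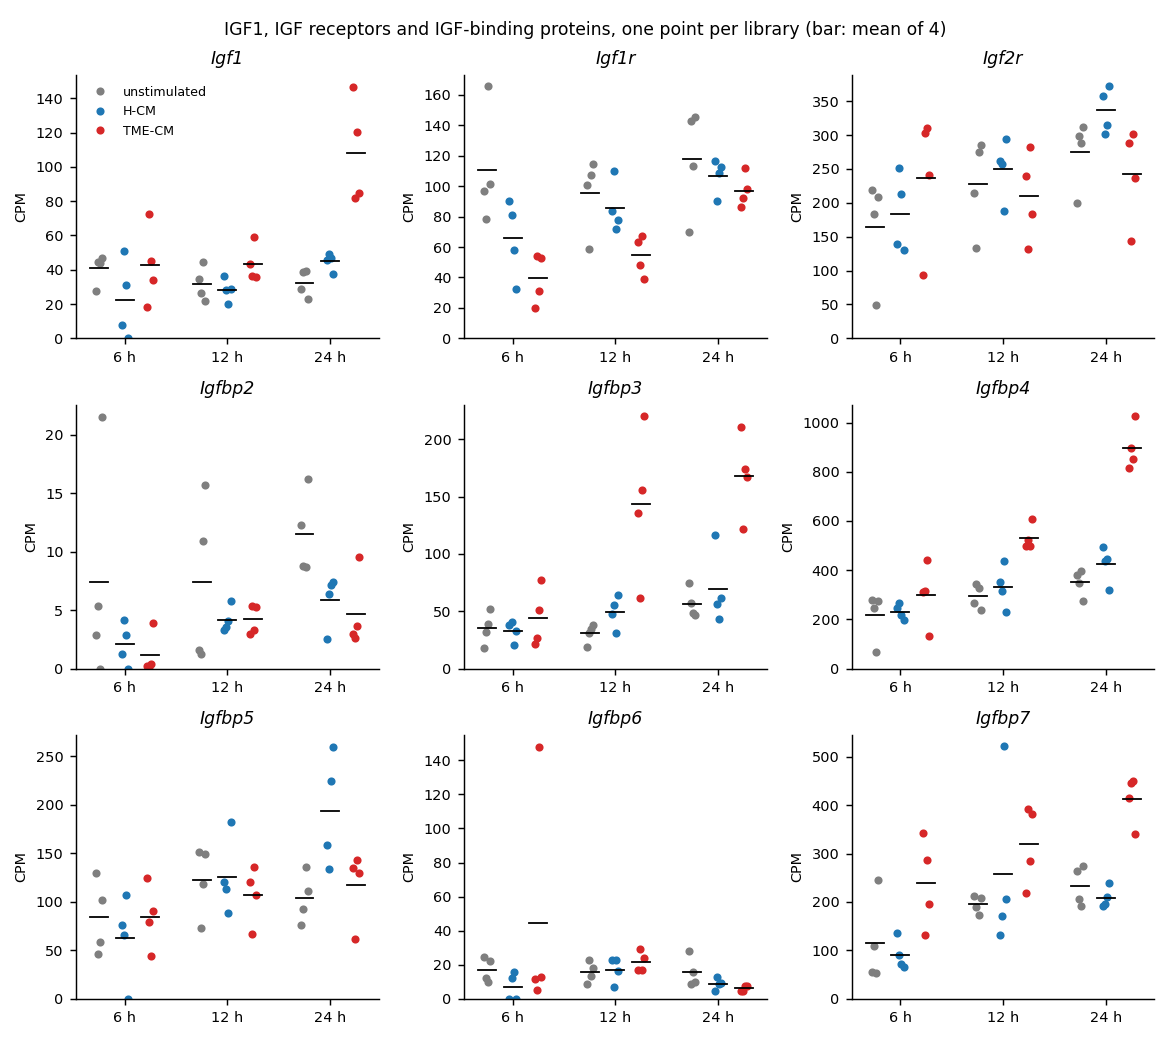
CPM (linear axis from 0) of the 9 members in each of the 36 libraries, by time and treatment, with a bar for the mean of 4. The TME-CM libraries of 24 h lie above all other libraries of that time for Igf1, Igfbp3, Igfbp4 and Igfbp7, while Igfbp6 in TME-CM EGCs at 6 h has 1 library at 148 CPM far above the others.

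Igf1, the ligand (chr10:87858265-87937042, plus strand, GRCm38, GENCODE M21), stood at 146, 82.0, 120.1 and 84.7 CPM in TME-CM EGCs at 24 h (replicates 1 to 4). The H-CM libraries held 46.0, 49.0, 47.0 and 37.7 CPM, and the unstimulated libraries 28.5, 38.4, 39.1 and 22.7 CPM. All 4 TME-CM libraries were therefore above all 8 others. The TME-CM level was 2.40-fold that of H-CM EGCs (log2 fold change 1.26, SE 0.19, adjusted p = 0.000254, edgeR) and exceeded that of unstimulated EGCs by 1.76 on the log2 scale (SE 0.20, adjusted p = 1.59e-06). In 1 edgeR model of all 36 libraries, which takes in the widely spread libraries of 6 h, the difference from H-CM kept its size (1.27) with an adjusted p of 0.164.

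Igf1r (chr7:67952827-68233668, plus strand) encodes the signalling receptor. At 24 h its level was 97.1 ± 10.9 CPM in TME-CM, 107 ± 11.4 in H-CM and 118 ± 35.2 in unstimulated EGCs, and these ranges overlapped (log2 fold change -0.13, SE 0.18, adjusted p = 0.803 for TME-CM against H-CM). Against unstimulated EGCs the log2 fold change was -0.28 (SE 0.18, adjusted p = 0.443, edgeR). Without unstimulated replicate 1, the lowest library of its group, it was -0.46 and was called (adjusted p = 0.028). Lower values with TME-CM were also seen earlier. At 12 h the TME-CM libraries held 63.6, 48.5, 67.1 and 39.3 CPM, the H-CM libraries 83.6, 109.9, 71.8 and 77.9 CPM and the unstimulated libraries 101, 59.0, 107 and 115 CPM. TME-CM lay below every H-CM library, and 1 unstimulated library fell within the TME-CM range. The log2 fold change was -0.65 (SE 0.23, adjusted p = 0.229, edgeR) against H-CM and -0.81 (SE 0.23, adjusted p = 0.0525) against unstimulated EGCs. At 6 h, TME-CM EGCs had 39.7 ± 16.9 CPM and unstimulated EGCs 111 ± 38.1 CPM without overlap (log2 fold change -1.46, SE 0.46, unadjusted p = 0.00339, adjusted p = 0.323, edgeR). None of these 3 differences of 12 h and 6 h passed the adjusted threshold. The 12 h difference from unstimulated EGCs did with DESeq2 (adjusted p = 0.0247), and the 6 h difference did in the model of 36 libraries (adjusted p = 0.00248).

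Igf2r (chr17:12682406-12769664, minus strand), the scavenging receptor for IGF2, stood at 288, 143, 302 and 237 CPM in TME-CM EGCs at 24 h. In H-CM EGCs it stood at 358, 302, 315 and 373 CPM, and the unstimulated libraries held 199 to 313 CPM. The TME-CM and H-CM ranges meet at 302 CPM without crossing, which makes Igf2r 1 of 5 members whose groups did not overlap in this comparison, beside 11.2% of all genes. Its log2 fold change of -0.47 (SE 0.19) did not pass the test (adjusted p = 0.191, edgeR). The lowest TME-CM library, replicate 2, also had the highest Yam1 share of the 24 h libraries (35.1%), and without it the log2 fold change was -0.29.

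Igfbp4 (chr11:99041244-99054392, plus strand) encodes a binding protein that mostly holds IGF back from its receptor. At 24 h it was counted at 815, 895, 852 and 1025 CPM in TME-CM EGCs, at 494, 436, 445 and 320.1 CPM in H-CM EGCs and at 381, 347, 399 and 276 CPM in unstimulated EGCs. No TME-CM library came near the other 8. The level was 2.11-fold that of H-CM EGCs (log2 fold change 1.08, SE 0.14, adjusted p = 3.96e-05, edgeR), and against unstimulated EGCs the log2 fold change was 1.35 (SE 0.14, adjusted p = 5.99e-07). The difference was called in all alternative fits and without any 1 of the 8 libraries compared. The same order was present at 12 h, with 531 ± 51.6, 334 ± 85.1 and 295 ± 48.9 CPM in TME-CM, H-CM and unstimulated EGCs. There the difference from unstimulated EGCs passed the test (log2 fold change 0.85, SE 0.19, adjusted p = 0.00835), and the difference from H-CM did not (0.67, SE 0.19, adjusted p = 0.0829) although the groups did not overlap. In the model of 36 libraries the first of these was not called (adjusted p = 0.0966), and DESeq2 called the second (adjusted p = 0.0283).

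Igfbp3 (chr11:7206086-7213923, minus strand) encodes the binding protein that carries most IGF in the blood and that can also limit cell growth by itself. Its 24 h levels were 211, 122, 174 and 167 CPM in TME-CM, 116, 56.2, 43.0 and 61.6 CPM in H-CM and 75.0, 57.2, 48.3 and 46.3 CPM in unstimulated EGCs. The groups did not overlap, with H-CM replicate 1 just under the lowest TME-CM library. TME-CM EGCs had 2.45-fold the level of H-CM EGCs (log2 fold change 1.29, SE 0.27, adjusted p = 0.00866, edgeR) and were 1.59 above unstimulated EGCs on the log2 scale (SE 0.27, adjusted p = 0.000935).

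Among the members, Igfbp3 was called in TME-CM against both other groups at 12 h as well. The TME-CM libraries of 12 h held 136, 61.3, 156 and 220.1 CPM, the H-CM libraries 47.3, 55.6, 30.7 and 64.0 CPM and the unstimulated libraries 18.9, 30.8, 34.7 and 38.0 CPM. Replicate 2 of TME-CM fell within the H-CM range, and none fell within the unstimulated range. The log2 fold change was 1.54 (SE 0.31, adjusted p = 0.00943, edgeR) against H-CM and 2.21 (SE 0.32, adjusted p = 0.00016) against unstimulated EGCs. Without TME-CM replicate 4 the first of these had an adjusted p of 0.0556. At 24 h the difference of Igfbp3 between TME-CM and H-CM EGCs had an adjusted p of 0.125 in the model of 36 libraries.

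Igfbp7 (chr5:77349240-77408041, minus strand) encodes a secreted protein with low affinity for IGF that also binds insulin and matrix. It was counted at 415, 445, 449.6 and 340.3 CPM in TME-CM EGCs at 24 h. The H-CM libraries held 191, 195, 210.2 and 238 CPM and the unstimulated libraries 264, 207, 191 and 274 CPM, so that the 4 TME-CM libraries again stood above the other 8. The level was 1.98-fold that of H-CM EGCs (log2 fold change 0.99, SE 0.14, adjusted p = 8.02e-05, edgeR) and the log2 fold change against unstimulated EGCs was 0.82 (SE 0.14, adjusted p = 0.00022). In the model of 36 libraries these adjusted p-values were 0.394 and 0.455.

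At 12 h Igfbp7 varied more, with 218, 392, 285 and 382 CPM in TME-CM, 132, 171, 522 and 207 CPM in H-CM and 212, 189.9, 173 and 208 CPM in unstimulated EGCs. H-CM replicate 3 was the highest library of that time, and neither TME-CM comparison passed the test (adjusted p = 0.824 and 0.396, edgeR). Without H-CM replicate 3, the difference between TME-CM and H-CM EGCs was called (log2 fold change 0.88, adjusted p = 0.0182). All TME-CM libraries of 12 h stood above all unstimulated ones (log2 fold change 0.70, SE 0.33). In edgeR this difference was called with only the groups compared (adjusted p = 0.0228) and with no filter on low counts (adjusted p = 0.0238). The table counts reads without a stated strand setting, and 85 bases of the Igfbp7 exons overlap exons of Polr2b on the opposite strand. No exon of the other 8 members overlaps one of another gene in GENCODE M21.

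The promoters of 3 binding proteins that were higher with TME-CM, and of Igfbp6, which was lower, are shown because the first 3 moved together at 24 h. Each is the 250 bases before the start of the gene in RefSeq (GRCm38.p6), 5′ to 3′ on the strand of the gene. All 9 members matched a RefSeq promoter, and the window of Igf1 is not shown because it lies within annotated exons. Capitals mark matches to 6 motifs, searched on both strands: the TATA box (TATAAA), NF-kB (GGANTTNCC), C/EBP (TTGCNNAA), AP-1 (TGANTCA), the hypoxia response element (ACGTG) and STAT (TTCNNNGAA).
Igfbp3, chr11:7213924-7214173, minus strand: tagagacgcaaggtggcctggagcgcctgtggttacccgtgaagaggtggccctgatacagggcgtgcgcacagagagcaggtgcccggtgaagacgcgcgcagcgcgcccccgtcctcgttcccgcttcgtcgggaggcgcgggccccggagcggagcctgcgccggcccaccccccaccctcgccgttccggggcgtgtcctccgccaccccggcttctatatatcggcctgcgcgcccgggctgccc
Igfbp4, chr11:99040994-99041243, plus strand: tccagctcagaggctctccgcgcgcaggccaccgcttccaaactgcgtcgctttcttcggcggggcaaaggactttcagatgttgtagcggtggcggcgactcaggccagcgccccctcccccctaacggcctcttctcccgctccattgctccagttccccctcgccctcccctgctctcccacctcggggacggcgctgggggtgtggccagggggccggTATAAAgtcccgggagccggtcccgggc
Igfbp7, chr5:77408046-77408295, minus strand: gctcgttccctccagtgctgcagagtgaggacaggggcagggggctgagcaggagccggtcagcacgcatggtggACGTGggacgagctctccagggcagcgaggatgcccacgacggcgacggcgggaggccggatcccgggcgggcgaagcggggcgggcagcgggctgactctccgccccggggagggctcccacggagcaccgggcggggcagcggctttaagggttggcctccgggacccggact
Igfbp6, chr15:102143936-102144185, plus strand: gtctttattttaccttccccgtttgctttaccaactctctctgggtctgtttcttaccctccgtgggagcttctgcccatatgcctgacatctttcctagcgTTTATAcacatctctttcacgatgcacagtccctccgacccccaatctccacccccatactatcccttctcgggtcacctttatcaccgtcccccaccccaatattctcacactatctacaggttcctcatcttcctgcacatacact
The Igfbp4 window held a TATA box at 23 to 28 bases before the start, the Igfbp6 window one on the opposite strand at 143 to 148 bases, and the Igfbp7 window a hypoxia response element at 171 to 175 bases. These letters occur in 12.4% (TATA box) and 16.6% (hypoxia response element) of the 32851 RefSeq promoter windows of that length. The Igfbp3 window held none of the 6 motifs as spelled above, a search that does not cover TATA boxes with other letters. The NF-kB, C/EBP, AP-1 and STAT letters, found in 3.15%, 9.56%, 6.75% and 7.02% of all windows, were in none of these 4. A match describes the letters of the window and not a bound site.

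Igfbp5 (chr1:72857932-72874884, minus strand), which binds IGF in the matrix and lies next to Igfbp2 on chromosome 1, had its highest levels with H-CM. The H-CM libraries of 24 h held 159, 134, 224 and 259 CPM, against 75.6, 92.5, 136 and 112 CPM in unstimulated and 134, 61.9, 143 and 129 CPM in TME-CM EGCs. The H-CM range overlapped with each of the other ranges at its lower end. The log2 fold change of H-CM against unstimulated EGCs was 0.89 (SE 0.26, unadjusted p = 0.00432, adjusted p = 0.125, edgeR), and DESeq2 (adjusted p = 0.0134), the fit without a filter on low counts, the fit of those 2 groups alone and the fit with a replicate block called it. TME-CM against H-CM gave -0.71 (SE 0.26, adjusted p = 0.169), which was called without the filter and with the block. TME-CM and unstimulated EGCs differed by 0.18 (SE 0.26, adjusted p = 0.82).

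Igfbp6 and Igfbp2 were the scarce binding proteins. Igfbp6 (chr15:102144362-102149511, plus strand), which prefers IGF2, had 4.55, 4.8, 7.77 and 7.42 CPM in TME-CM, 4.53, 12.6, 8.38 and 9.13 CPM in H-CM and 28.0, 8.92, 15.6 and 10.1 CPM in unstimulated EGCs at 24 h. TME-CM lay below every unstimulated library, and H-CM overlapped with both groups. The difference between TME-CM and unstimulated EGCs was called (log2 fold change -1.29, SE 0.36, adjusted p = 0.0236, edgeR). It was no longer called without unstimulated replicate 1, the highest library (-0.88, adjusted p = 0.111), without TME-CM replicate 1 (adjusted p = 0.0888), without unstimulated replicate 3 (adjusted p = 0.0572), with a replicate block (adjusted p = 0.0525) or in the model of 36 libraries (adjusted p = 0.844).

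Igfbp2 (chr1:72824503-72852474, plus strand), a binding protein abundant in fetal tissue, had 12.3, 8.74, 8.66 and 16.2 CPM in unstimulated EGCs at 24 h, on 43 to 116 counts. H-CM EGCs had 2.49, 6.4, 7.15 and 7.42 CPM and TME-CM EGCs 2.93, 2.62, 3.66 and 9.52 CPM. All H-CM libraries and 3 of the 4 TME-CM libraries were below all unstimulated ones. Neither difference passed the test (log2 fold change -1.26, SE 0.40, adjusted p = 0.0512 for TME-CM and -0.98, SE 0.40, adjusted p = 0.329 for H-CM, edgeR). The first passed with DESeq2 (adjusted p = 0.0284) and without TME-CM replicate 4 (-1.86, adjusted p = 0.00405). At 6 h Igfbp2 did not pass the filter on low counts, with 118 counts in 1 unstimulated library and at most 21 in any other.

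**Figure D2:**
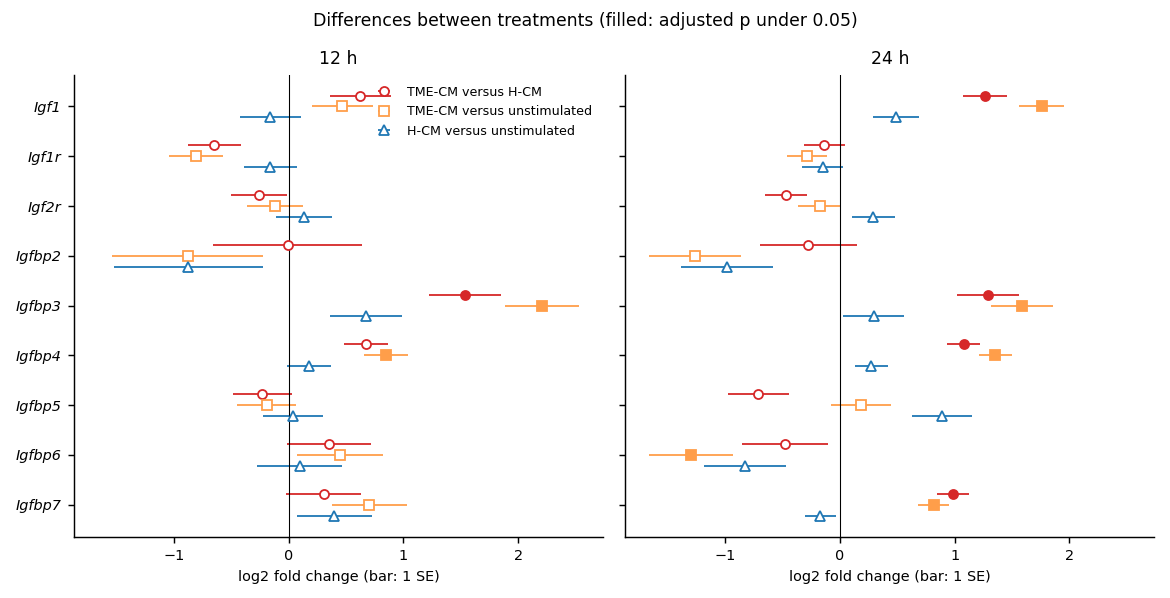
Log2 fold changes of the 9 members between treatments at 12 h and 24 h, with bars of 1 SE; filled symbols have an adjusted p under 0.05 in edgeR's quasi-likelihood test. At 24 h the filled symbols for TME-CM against H-CM lie between 0.99 and 1.29, and no difference of H-CM from unstimulated EGCs is filled at either time.

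Summed over the 6 binding proteins, mRNA at 24 h came to 1605 ± 63.2 CPM with TME-CM, to 910.1 ± 55.4 CPM with H-CM and to 772 ± 54.3 CPM without stimulation (SD, n = 4). The sum lay between 1531 and 1678 CPM in the TME-CM libraries and at most at 967 CPM in the other 8. At 12 h it was 1127 ± 151, 788 ± 211 and 667 ± 7.9 CPM in the same order. There the TME-CM libraries, from 992 CPM, overlapped with the H-CM libraries, which reached 1103 CPM. The unstimulated libraries of 12 h had at most 678 CPM. Since 3′ libraries give about 1 read for each transcript whatever its length, counts of different genes were set side by side without a length correction, which does not remove differences in priming.

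Igfbp4 gave the greatest share of this sum in all 3 groups of 24 h, with 55.8 ± 4.7% in TME-CM, 46.5 ± 7.5% in H-CM and 45.3 ± 5.4% in unstimulated EGCs. Igfbp7 gave 25.8 ± 3.9%, 23.0 ± 2.8% and 30.4 ± 5.6%, and Igfbp3 gave 10.5 ± 2.2%, 7.54 ± 3.2% and 7.32 ± 1.4%. The share of Igfbp5 was 7.25 ± 2.2% with TME-CM, 21.3 ± 6.3% with H-CM and 13.5 ± 3.4% without stimulation. The Igfbp5 share of TME-CM EGCs, at most 8.75%, lay below that of every other 24 h library, the lowest of which had 9.04%. Igfbp2 and Igfbp6 each had a mean share of at most 1.98%. The shares are given without a test.

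**Figure D3:**
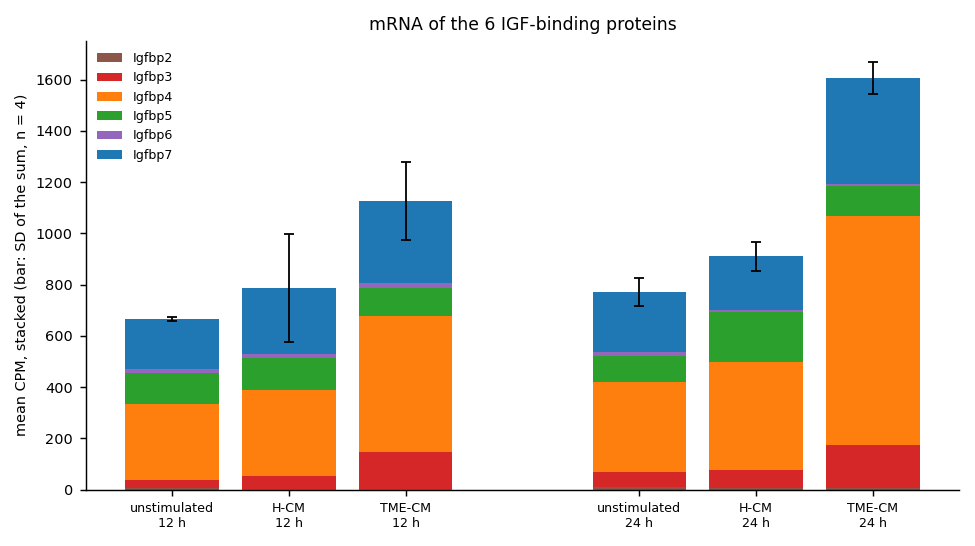
Mean CPM of the 6 binding proteins, stacked, for the 6 groups of 12 h and 24 h, with the SD of the summed CPM over 4 libraries. The stack of TME-CM EGCs at 24 h reaches 1605 CPM, most of it Igfbp4 and Igfbp7.

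At 12 h, 1 member (Igfbp3) was called in TME-CM against H-CM EGCs beside 1.89% of 12156 genes, 2 (Igfbp3 and Igfbp4) in TME-CM against unstimulated EGCs beside 4.41%, and 0 in H-CM against unstimulated EGCs beside 0.403%. In the last of these, 1 member had an unadjusted p under 0.05, beside 5.66% of genes, and DESeq2 called 0. At 6 h, 8 members were tested and 0 were called in each comparison, beside 0.0972%, 0.454% and 0% of 9256 genes in the same order. The comparisons with H-CM at 6 h include H-CM replicate 4, a nearly empty library of 13518 counts. In that library 3 counts equal 98.1 CPM. An unadjusted p under 0.05 was reached at 6 h by Igfbp6 and Igfbp7 in TME-CM against H-CM (6.07% of genes), by Igf1r and Igfbp7 in TME-CM against unstimulated EGCs (6.19%), and by 0 members in H-CM against unstimulated EGCs (0.627%). DESeq2 called 0 members in all 3. 

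Between 12 h and 24 h in TME-CM EGCs, Igf1 rose (log2 fold change 1.17, SE 0.24, adjusted p = 0.00782, edgeR) and Igfbp6 fell (-1.91, SE 0.39, adjusted p = 0.00981), 2 of 9 members beside 0.626% of 13105 genes. On a scale common to both times, Igf1 went from 45.7 ± 12.2 to 103 ± 30.1 CPM and Igfbp6 from 22.6 ± 6.0 to 5.83 ± 1.6 CPM, and the groups did not overlap for either gene. Neither call remained without TME-CM 24 h replicate 1 (adjusted p = 0.0771 and 0.0659) or in the model of 36 libraries (adjusted p = 1 for both). Igfbp4 (0.62, SE 0.17, adjusted p = 0.0793) and Igf1r (0.68, SE 0.22, adjusted p = 0.208) were higher at 24 h in all 4 libraries than in any of 12 h without passing the test. Igfbp4 did pass it in DESeq2 (adjusted p = 0.0457) and in edgeR with no filter on low counts (adjusted p = 0.0356), and its adjusted p over all alternatives ran up to 1, in the model of 36 libraries. Thus 4 of 9 members did not overlap between the times, beside 5.56% of all genes. In unstimulated and in H-CM EGCs, 0 members were called between 12 h and 24 h, beside 0.0153% and 0.00763% of genes. There Igfbp3 in unstimulated and Igf1 and Igfbp6 in H-CM EGCs had an unadjusted p under 0.05, beside 5.3% and 6.23% of genes, and DESeq2 called 0 in both groups.

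The change of the difference between TME-CM and H-CM EGCs from 12 h to 24 h was tested as such and gave 0 calls among 13105 genes in edgeR, with 0 members at an unadjusted p under 0.05 (3.33% of genes) and 0 by DESeq2. On the log2 scale the estimate was 0.65 (SE 0.33) for Igf1, 0.52 (SE 0.30) for Igf1r, 0.42 (SE 0.23) for Igfbp4 and 0.70 (SE 0.38) for Igfbp7. The estimates of the other members were below 0, each with an unadjusted p above 0.1 in edgeR. It is therefore not shown that the TME-CM effect on any member differed between these times. From 6 h to 12 h, 0 members were called in unstimulated EGCs beside 0.205% and 0 in TME-CM EGCs beside 1.39% of 12668 genes. An unadjusted p under 0.05 was reached by 0 members in the first group (6.06% of genes) and by Igfbp3 in the second (17.4%), with a log2 fold change of 1.42 (SE 0.42, adjusted p = 0.0686, edgeR). DESeq2 called 0 in the first and Igfbp3 in the second (adjusted p = 0.0261). H-CM EGCs were not compared between 6 h and 12 h, because H-CM replicate 4 of 6 h had very few counts.

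The wider IGF pathway was read from a list of 32 further genes, of which 26 were tested at 24 h. Calls on this list were made by edgeR alone and were not checked in the alternative fits. In TME-CM against H-CM EGCs, 5 of the 26 passed the test, 2 higher (Stc1 and Stc2) and 3 lower (Foxo1, Gab1 and Pik3r1), beside 5.4% of all 12713 genes (2.75% higher and 2.65% lower). The list median was -0.11 beside 0.00 for all genes. The list was chosen with earlier results of these data known, so the shares are set side by side as a description. Igf2, the second ligand, was at 1480 ± 250.1, 1496 ± 205 and 1425 ± 160.4 CPM in TME-CM, H-CM and unstimulated EGCs, and the log2 fold change of TME-CM against H-CM was -0.02 (SE 0.14, adjusted p = 0.977, edgeR). A stretch of 3596 bases of Igf2 exons is shared with the gene Gm49394 on the same strand, and reads there could have been split.

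Stc1 and Stc2 encode stanniocalcins, secreted inhibitors of the metalloproteinase PAPP-A, which cuts IGFBP4 and IGFBP5 and so frees IGF. Stc1 was at 44.4 ± 5.5 CPM in TME-CM, 14.3 ± 5.5 in H-CM and 5.37 ± 2.9 in unstimulated EGCs at 24 h. It was the gene of the list called in all 3 comparisons of that time, with log2 fold changes of 1.64 (SE 0.27, adjusted p = 0.000552, edgeR) for TME-CM against H-CM, 3.11 (SE 0.30) for TME-CM against unstimulated and 1.47 (SE 0.31) for H-CM against unstimulated EGCs. Stc2 was at 28.6 ± 3.3 CPM with TME-CM and at 10.8 ± 1.0 and 10.01 ± 3.4 CPM in the other groups (log2 fold change 1.39, SE 0.24, adjusted p = 0.000742 against H-CM). Pappa itself was lower in TME-CM than in unstimulated EGCs at 24 h (43.5 ± 9.9 against 67.2 ± 7.5 CPM, log2 fold change -0.61, adjusted p = 0.0271) and at 12 h (-1.21, adjusted p = 0.00333). Htra1, a secreted protease that cuts IGFBP5, was lower in TME-CM than in unstimulated EGCs at 24 h (-0.76, SE 0.16, adjusted p = 0.00262).

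The 3 genes lower in TME-CM than in H-CM EGCs act downstream of the receptor. Gab1, a docking protein, was at 10.8 ± 1.3 against 20.7 ± 5.7 CPM (log2 fold change -0.90, SE 0.22, adjusted p = 0.0136, edgeR). Pik3r1, the regulatory subunit of PI3-kinase, was at 64.9 ± 17.8 against 100.4 ± 14.6 CPM (-0.62, SE 0.18, adjusted p = 0.0446). Foxo1, a transcription factor that insulin and IGF signalling keeps out of the nucleus, was at 37.2 ± 2.2 against 53.4 ± 3.4 CPM (-0.53, SE 0.13, adjusted p = 0.0183). Exons of Gab1, Foxo1 and Stc1 overlap annotated antisense genes, whose reads cannot be told apart here. Against unstimulated EGCs, 7 of the 26 genes passed the test, 2 higher (Stc1 and Stc2) and 5 lower (Foxo1, Gab1, Grb10, Htra1 and Pappa), beside 9.52% of all genes (4.82% higher and 4.7% lower) and with a list median of -0.11.

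**Figure D4:**
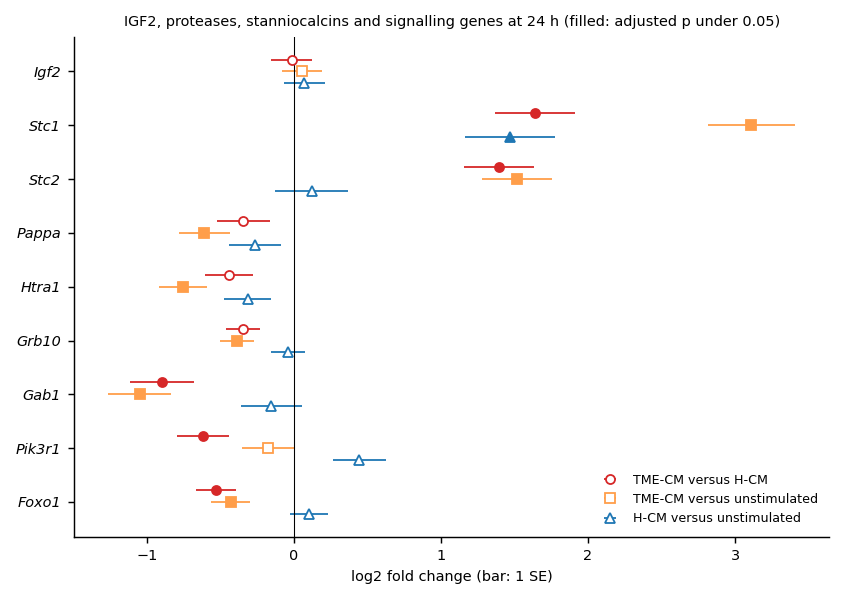
Log2 fold changes at 24 h with bars of 1 SE for Igf2 and for the 8 pathway genes called in TME-CM against H-CM or unstimulated EGCs; filled symbols have an adjusted p under 0.05 in edgeR. Stc1 is filled in all 3 comparisons, from 1.47 to 3.11, and Igf2 lies between -0.02 and 0.07.

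Some marker lists of other cell types also differed between these groups, in both directions. Of 8 mesenchymal markers, 4 were higher in TME-CM than in H-CM EGCs at 24 h (Col3a1, Dcn, Lum and Pdgfra) and 0 were lower; their summed level was 6427 to 7808 CPM in TME-CM, 4715 to 5748 CPM in H-CM and 5883 to 7405 CPM in unstimulated libraries. The log2 fold changes of these 4 were 0.44 (Col3a1), 1.21 (Dcn), 0.65 (Lum) and 0.93 (Pdgfra), and the median of the 8 markers was 0.45. Against unstimulated EGCs that median was 0.22, with Dcn and Pdgfra called higher and Col1a1 lower. Of 8 smooth muscle markers, 5 were lower and 0 were higher, with sums of 1889 to 2726, 3631 to 4454 and 7788 to 8992 CPM in the same order. Of 9 tested glial markers edgeR called 0, with 2 at an unadjusted p under 0.05, and DESeq2 called 1 (S100b, lower); their sums were 271 to 358, 312 to 322 and 259 to 286 CPM. Of 9 tested immune markers both tools called 0, with 0 at an unadjusted p under 0.05, and the sums were 80.9 to 405, 86.7 to 380.4 and 62.3 to 260.2 CPM. Both markers of interstitial cells of Cajal, the pacemaker cells of the gut, were lower in TME-CM than in H-CM EGCs (Ano1 by a log2 fold change of -1.22 and Kit by -1.28), with sums of 30.6 to 74.4, 86.2 to 151.9 and 88.9 to 150.3 CPM. Of 2 tested endothelial markers 1 was lower (Kdr, -1.65), with sums over the list of 11.6 to 28.0, 34.9 to 69.6 and 39.4 to 59.1 CPM. Of 5 neuronal markers both tools called 0, with 2 at an unadjusted p under 0.05, and the sums were 145.7 to 276.9, 206.2 to 271 and 195.9 to 254 CPM. The epithelial markers summed to at most 5.55 CPM in these libraries. The part of these other cells in the differences of the members was not tested.

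Across the 24 libraries of 12 h and 24 h, members were compared by Pearson's r of log2 CPM, as a description over libraries that share treatments and depth. Igf1 followed Igfbp4 with r = 0.79 and Igfbp3 followed Igfbp4 with r = 0.76, while Igf2r and Igfbp5 had r = 0.82. Igf1 and Igf1r were at r = -0.02, and Igfbp6 ran against Igf1 (r = -0.56) and Igf1r (r = -0.59). Among all 10192 genes with at least 5 CPM on average, those most like Igfbp3 were Ch25h (0.93), Cd47 (0.91) and Cebpb (0.90), and those most like Igfbp4 were Pfkl, Tmem176a and Sod3, each with r = 0.91. Igf1 was most like Dpy19l1 (0.85), and those most like Igfbp7 were H2afy (0.86), Map2k1 (0.85) and Higd1a (0.83). Igf1r was most like Stim1 (0.88), Igf2r most like Prr14l (0.90), Igfbp6 most like Gsto1 (0.77), and Igfbp2 most like Kcnmb1, with r = 0.69. Of the members, Igfbp5 was the one whose nearest gene was another member.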

How the data were processed

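RNA of 36 libraries of embryonic neurosphere-derived EGCs was prepared with a 3′ mRNA kit (QuantSeq) and sequenced on a HiSeq4000. The deposited values are raw counts per gene symbol: the authors trimmed adapters with fastq-mcf, checked reads with FastQC 0.11.7, aligned them to mm10 with HISAT2, used SAMtools 1.5, dropped reads with several locations and counted with HT-seq Count. Which annotation and which strand option were used, and whether molecular identifiers were read, is not given in the sources used here. All columns of the table were used.

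The tests were run with edgeR 4.0.16, on limma 3.58.1 under R 4.3.3. For each time point, genes were kept with filterByExpr (minimum count 10), scaled with TMM factors and fitted with a robust quasi-likelihood model with 1 mean per group over 12 libraries. Changes with time were fitted over the 24 libraries of 2 time points. Calls are genes with a Benjamini-Hochberg adjusted p under 0.05 over all genes tested. CPM are scaled within a time point, and log2 CPM for Pearson's r used a prior count of 2. In simulated counts with the spread of the real libraries, a log2 change of 2 between TME-CM and H-CM EGCs was recovered for 30.9% (6 h), 75.5% (12 h) and 87.9% (24 h) of the changed genes. The member differences called between TME-CM and H-CM EGCs were smaller than this, and recovery of smaller changes was not simulated.

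Alternatives were DESeq2 1.42.0 (test and size factors), no filter, 1 model of all libraries, only the groups compared, a replicate block, leaving out the row Yam1, and leaving out each library in turn. They were run for the members, and the DESeq2 test also for the marker lists in TME-CM against H-CM EGCs at 24 h. The pathway genes were not put through them. All 9 members were named. Pathway genes were named where called, and genes like a member by the 3 highest r where both genes averaged 5 CPM or more. The members, the pathway list and the marker lists were chosen with earlier results of these data known. Gene positions come from GENCODE M21 (GRCm38), promoters from RefSeq (GRCm38.p6). Depth sets the precision: 3 counts equal 0.397 to 1.87 CPM of the total in the libraries of 24 h. One listed marker, Adgre1, had no row and was not used. Some genes that the naming rule or the marker lists hold are not reported here by name.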

Additional observations from a re-analysis of the deposited data

Results flagged for a closer look

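In 81 groups of 4 libraries (9 members in 9 groups), 6 had 1 library whose distance from its nearest neighbour was above Dixon's 95% critical value, and chance alone flags about 1 in 20 groups. At 24 h these were TME-CM replicate 2 for Igfbp5, at 61.9 CPM below the next value of 129 CPM, and TME-CM replicate 4 for Igfbp2, at 9.52 CPM above the next value of 3.66 CPM. At 6 h they were unstimulated replicate 1 for Igf1, at 27.6 CPM below 44.0 CPM, unstimulated replicate 3 for Igfbp4, at 68.4 CPM below 248 CPM, TME-CM replicate 4 for Igfbp2, at 3.92 CPM above 0.351 CPM, and TME-CM replicate 3 for Igfbp6, at 148 CPM above 12.9 CPM. The Igfbp6 value rests on 420 counts and the Igfbp4 value on 14 counts. The Igfbp6 library, TME-CM replicate 3 of 6 h, had 10433 genes detected on 2919357 counts. Replicates 1, 2 and 4 of its group had 10120, 13481 and 13796 genes on 4158689, 1321201 and 5244763 counts. The part of depth, of the number of genes detected and of single cultures in these values was not tested.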

How the results depend on the processing

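In TME-CM against H-CM at 24 h, the count of 4 members was kept without any 1 of the 8 libraries (lowest 4, highest 4) and in 4 of 7 alternative fits. It was 5 with the replicate block, which added Igfbp5, and 6 with no filter, which added Igf2r and Igfbp5. The model of all 36 libraries, whose common dispersion takes in that of 6 h (0.572 against 0.0455 at 24 h), called 1 member there, Igfbp4. It called 3 in TME-CM against unstimulated EGCs at 24 h, 1 at 12 h, 1 in TME-CM against H-CM at 6 h, 2 in TME-CM against unstimulated at 6 h, 0 in TME-CM from 12 h to 24 h and 1 from 6 h to 12 h. For H-CM against unstimulated EGCs at 24 h, DESeq2, no filter, only the groups compared and the replicate block each called 1 (Igfbp5). For TME-CM against H-CM at 12 h DESeq2 called 2, and for TME-CM against unstimulated at 12 h no filter and only the groups compared each called 4. DESeq2 and no filter each called 3 in TME-CM from 12 h to 24 h, adding Igfbp4, and DESeq2 called 1 from 6 h to 12 h. Leaving out 1 library gave 0 to 3 calls for TME-CM against H-CM at 12 h (0 without TME-CM replicate 4, 3 without H-CM replicate 3), 0 to 2 for TME-CM from 12 h to 24 h (0 without TME-CM 24 h replicate 1) and 0 to 1 from 6 h to 12 h (1 without TME-CM 6 h replicate 4). The cause of these shifts was not tested.

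No member called in the report changed direction in any alternative. Igfbp3 in H-CM against unstimulated EGCs at 24 h ranged from -0.0903 (without H-CM replicate 1) to 0.48 on the log2 scale when 1 library was left out. A further 79 log2 fold changes, outside the comparisons of treatments at 24 h, had no call in any fit. Their unadjusted p was at least 0.05 (0.1 for the change of a difference). Of these 79, 37 changed sign in at least 1 fit, where their lowest adjusted p was 0.568. Same-numbered libraries had correlated deviations in no pair of groups beyond 0.1 throughout, so the numbers were not taken to pair them. In H-CM between 12 h and 24 h all 8 libraries correlated best with their own number (0.059 to 0.191), as a hint from the data. Between unstimulated and H-CM EGCs at 24 h, 7 of 8 did so (0.051 to 0.129). Their median was 0.098 beside -0.034 for pairs with different numbers. In every other pair of groups at most 5 libraries did so. Among these, TME-CM between 12 h and 24 h had the highest median of all pairs for the same number. It was 0.160 (0.036 to 0.205), beside -0.062 for different numbers. With the replicate block, Igfbp6 lost its call in TME-CM against unstimulated EGCs at 24 h and Igfbp2 gained one (5 called), and beside Igfbp5 at 24 h no other call changed.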
